A study of Rattus norvegicus with 44 samples.

Results

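The choroid plexus of saline-treated rats was set against blood of saline-treated rats, with both tissues taken 3 h after the injection. The members were chosen by their source label alone: 4 choroid plexus arrays and 4 blood arrays, 8 of the 44 arrays in the series. Each choroid plexus array carried a pool from 3 rats given saline, and each blood array carried trunk blood of 1 rat given saline. All animals were male Sprague-Dawley rats of 3 months from the NCTR colony. The series also holds both tissues after environmentally-induced hyperthermia (EIH) and after amphetamine (AMPH), at 3 h and 1 day. The purpose that the submitters state for the untreated arrays is to learn how the choroid plexus makes and regulates cerebrospinal fluid (CSF).

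The choroid plexus is a fringe of villi in the brain ventricles. A single layer of cuboidal, ciliated epithelium covers a core of fenestrated capillaries, fibroblasts and macrophages. The epithelium pumps sodium, chloride and bicarbonate into the ventricle, and water follows. Its tight junctions and carriers form the barrier between blood and CSF. It also secretes carrier proteins and growth factors, of which transthyretin is the best known. Because its vessels are filled with blood, a dissected choroid plexus can hold blood cells.

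Every value below is a log2 intensity on a single-colour array. Values of one gene are listed for choroid plexus pools 1 to 4 and then for blood rats 1 to 4. A difference is choroid plexus minus blood and stands with the standard error of the limma fit. It rests on 4 arrays per tissue, unless its own n for choroid plexus and blood is printed beside it. A call means a Benjamini-Hochberg adjusted p under 0.05 over all genes tested. The scale ends near 16. A gene within 0.1 of that end on every array of a tissue is described as at the top of the scale, and its difference is then compressed. A pool counts as 1 sample, and some rats are shared: the rat of blood array 1 is also in pool 1, and the rats of blood arrays 2, 3 and 4 make up pool 2. One rat number of pool 3 recurs on a blood array of 1 day, and one of pool 4 in an AMPH pool of 1 day.

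By this test 5581 of 9925 genes differed between the tissues (56.2%), 3166 of them higher in choroid plexus (31.9%) and 2415 lower (24.3%). The groups did not overlap for 5618 genes (56.6%). Differences of 16-fold or more were called for 342 genes higher and 342 genes lower in choroid plexus. The median difference over all genes was 0.15. A call was thus the usual case between these tissues, and each count of a gene list below is to be read against those shares. Detection calls were not used here, so where background begins at the low end of the scale is not known. The p-values measure the spread among these 4 pools and 4 rats.

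The arrays were not equally alike. Choroid plexus pools 1 to 3 correlated with each other across genes at 0.959 to 0.976, pool 4 correlated with them at 0.919 to 0.922, the blood arrays with each other at 0.922 to 0.944, and choroid plexus with blood at 0.610 to 0.674. Pool 4 also had the most blank cells of the pools, 6.37%, and 124 genes more than 3 log2 units from the choroid plexus median, against 6, 19 and 51 genes in pools 1 to 3. Skeletal muscle transcripts stood high in pool 3. Over 8 genes of skeletal muscle picked for this pattern, such as the myosin gene Myh4 and the creatine kinase gene Ckm, the median was 5.66, 5.23, 13.15 and 9.53 in pools 1 to 4, against 8.82, 7.58, 6.89 and 7.49 in blood rats 1 to 4. The medians of blood rats 3 and 4 are over the 7 and 5 genes with a value, since the other cells were blank. Muscle transcripts were thus also read in blood, with the highest median in rat 1. Without pools 3 and 4 the test called 5046 genes. Neuron markers were highest in pool 1. The median over the neuron markers with a value was 7.37, 6.15, 5.77 and 4.98 in the pools, against 4.24, 4.66, 5.06 and 4.10 in blood.

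**Figure D1:**
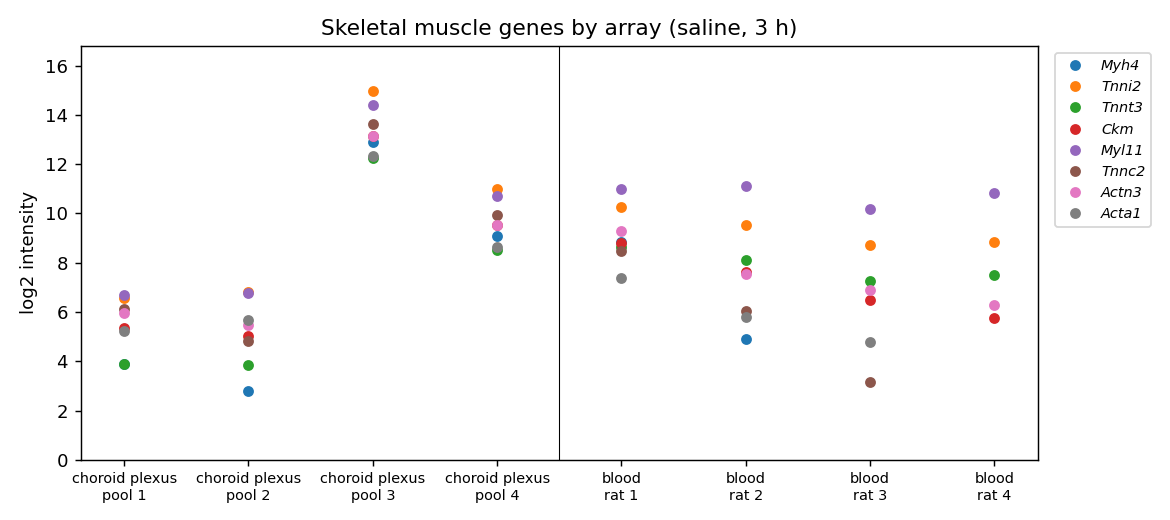
Log2 intensity of 8 skeletal muscle genes on each of the 8 arrays, with choroid plexus pools on the left and blood rats on the right. There is 1 point per gene and array where a value was present, and blank cells have none. Pool 3 stands highest with a median of 13.15, pool 4 follows with 9.53, and pools 1 and 2 lie at 5.66 and 5.23.

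The markers and their lists were chosen with earlier results of these data known, so their agreement with the labels is no test of them. Of 14 tested markers of the choroid plexus epithelium, 13 were higher in choroid plexus, none was lower, and the median difference was 7.91. The other 2 of 16, Slc4a5 and Htr2c, had too few blood values for the test. Ttr, the gene of transthyretin, read 15.98, 15.97, 15.997 and 15.99 in choroid plexus, against 7.30, 3.18 and 3.25 (blank in rat 1) in blood. Sostdc1, which encodes a secreted inhibitor of BMP and Wnt signalling, read 15.98, 15.97, 15.997 and 15.99 in choroid plexus, against 3.17, 5.94, 4.02 and 6.17 in blood. Both genes were at the top of the scale in every pool, so their differences of 11.41 ± 0.99 (n = 4 and 3) and 11.16 ± 0.65 are compressed. Kcnj13, an inward rectifier potassium channel gene, stayed below the top with 15.19, 15.21, 15.22 and 15.08 in choroid plexus, against 4.30 and 4.53 (blank in rats 1 and 3) in blood. Its difference was 10.76 ± 0.16 (n = 4 and 2), adjusted p = 2.15e-07. On the blood side, Hemgn, a nuclear protein gene of red cell precursors, read 5.81, 5.52, 5.48 and 3.97 in choroid plexus, against 13.74, 14.19, 14.20 and 13.95 in blood. Alox15 is a lipoxygenase gene that also stands in the list of eosinophil and mast cell markers. It read 5.81, 5.21, 5.88 and 5.12 in choroid plexus, against 14.33, 14.44, 14.69 and 14.49 in blood. The differences of Hemgn and Alox15 were -8.83 ± 0.39 and -8.99 ± 0.21. Which blood cells gave the Alox15 signal was not tested. Of the erythroid markers all 12 were lower in choroid plexus, with a median of -6.50. Their summed intensity ran from 4265 to 5097 in the pools, against 331524 to 364093 in blood. Klf1, the erythroid Krüppel-like factor gene, differed by -7.60 ± 0.13. Erythroid markers were nonetheless read on every pool: Alas2, the first enzyme of erythroid haem synthesis, read 9.64, 9.33, 9.59 and 9.67 in choroid plexus, against 15.999, 15.999, 15.999 and 15.999 in blood. It was at the top of the scale in blood. How much blood the choroid plexus pools held was not tested. In both tissues fewer cells of a type and less RNA per cell cannot be told apart.

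**Figure D2:**
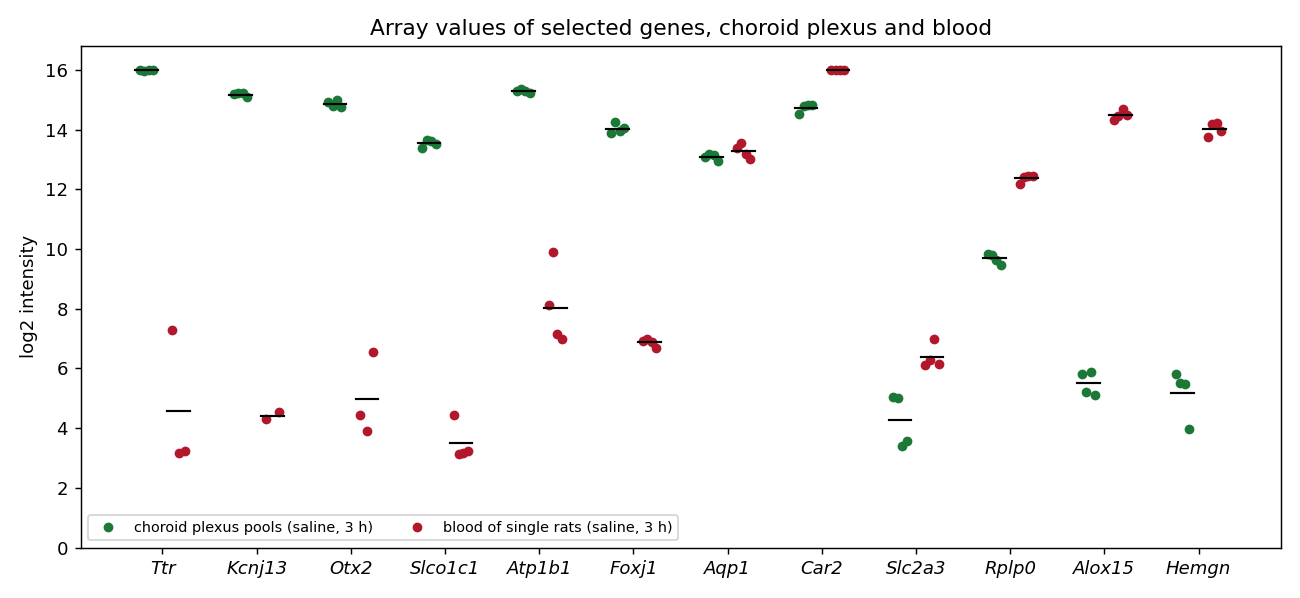
Log2 intensity of 12 genes named in the text, 1 point per array and a line at the mean, with choroid plexus pools (green) left of blood rats (red). Ttr and Car2 sit at the top of the scale in 1 tissue each, Aqp1 overlaps, and the other genes separate the tissues.

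Among transcription factors of the epithelium, 12 of 18 were higher and 2 lower (median 1.45). The homeobox genes Otx2 and Msx1 led them. Otx2, needed to form and maintain the choroid plexus in mice, read 14.92, 14.80, 14.98 and 14.75 in choroid plexus, against 4.44, 3.90 and 6.56 (blank in rat 3) in blood, a difference of 9.90 ± 0.60 (adjusted p = 1.07e-05, n = 4 and 3). Msx1 read 14.98, 15.16, 15.04 and 14.96 in choroid plexus, against 4.30, 5.63 and 5.36 (blank in rat 1) in blood, a difference of 9.94 ± 0.32 (adjusted p = 7.24e-07, n = 4 and 3). By the probes used, no blood array came within 8 log2 units of a pool for either gene. Another probe of Otx2 gave 6.79. Foxj1, the master regulator of motile cilia, differed by 7.16 ± 0.14 and the Krüppel-like factor gene Klf15 by 4.47 ± 0.30. Lmx1a, a roof plate factor of early development, was higher by 1.90 ± 0.50, with adjusted p = 0.012. Rfx3, a cilia regulator, stood at 0.24 ± 0.63 (n = 4 and 3) and did not pass. Dlx1 and Foxc2 went the other way at -2.57 ± 0.25 and -2.92 ± 0.29. For Foxc2 the probes disagree, since another probe gave 2.78.

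Of 21 motile cilia genes tested 17 were higher, none was lower, and the median was 4.28. Capsl, a calcium-binding protein gene, differed by 6.35 ± 0.21 (n = 4 and 3), and Dnali1, an axonemal dynein light intermediate chain gene, by 6.18 ± 0.35. The central pair gene Spef2 read 10.66, 10.57, 10.64 and 10.58 in choroid plexus, against 4.44, 5.94 and 3.25 (blank in rat 3) in blood, a difference of 6.07 ± 0.58 (adjusted p = 9.91e-05, n = 4 and 3). The tektin genes Tekt1, Tekt2 and Tekt4, which encode filaments inside the axonemal doublets, differed by 4.81 ± 0.41, 4.70 ± 0.51 (n = 4 and 3) and 4.69 ± 0.34. The radial spoke gene Rsph1 differed by 4.64 ± 0.42. Ift172, of intraflagellar transport, differed by 3.40 ± 0.13. The members that were not called included the dynein heavy chain gene Dnah5, with 4.78, 4.48, 5.17 and 3.75 in choroid plexus, against 3.64, 5.70 and 4.02 (blank in rat 4) in blood. Those values lie at the low end of the scale in both tissues.

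The letters of the promoters are shown for these genes because RFX and forkhead factors are known regulators of cilia genes. RefSeq promoters (GRCr8, 250 bases before the start and 50 after) were found for 19 of the 21 tested cilia genes. Both strands were searched for GTTGCC, a core of the X-box that RFX factors bind, for GTAAACA, a forkhead motif, for TAATCC, the motif of OTX factors, and for AGATAA, which GATA factors bind. None of these contains another. GTTGCC occurred in 10 of the 19 cilia promoters (52.6%), against 12.4% of the promoters of 8143 tested genes and 12.2% of all 27457 promoters. GTAAACA occurred in 3 of the 19 (15.8%), against 2.43% and 3.76%. TAATCC occurred in 1 of the 19 (5.26%) and in none of 7 promoters of epithelium markers, against 5.88% of tested genes and 7.11% of all promoters. AGATAA was in 2 of 10 erythroid promoters (20%), Alas2 and Rhd, and in none of the cilia promoters, against 7.29% and 11.3%. A match is a run of letters, not a bound site. Promoters of 4 cilia genes with GTTGCC and, for comparison, the promoter of Alas2 are printed 5′ to 3′ as far as 30 bases past the start (base 250 is the last base before it). Capitals mark a match of any of the 4 motifs on either strand.
Tekt1 (chr10:57479092-57479371, minus strand): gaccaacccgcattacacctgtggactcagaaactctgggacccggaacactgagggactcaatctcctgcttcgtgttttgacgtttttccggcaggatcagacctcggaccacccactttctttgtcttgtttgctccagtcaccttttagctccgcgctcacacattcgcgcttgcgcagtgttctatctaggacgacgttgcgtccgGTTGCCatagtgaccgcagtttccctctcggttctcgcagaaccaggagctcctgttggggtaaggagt
Tekt2 (chr5:143907695-143907974, minus strand): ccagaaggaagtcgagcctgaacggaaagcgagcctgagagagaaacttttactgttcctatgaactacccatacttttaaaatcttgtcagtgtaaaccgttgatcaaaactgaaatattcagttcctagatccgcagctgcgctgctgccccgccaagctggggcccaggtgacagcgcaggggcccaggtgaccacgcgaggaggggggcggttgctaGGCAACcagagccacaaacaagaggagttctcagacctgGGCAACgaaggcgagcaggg
Lrrc23 (chr4:159277735-159278014, minus strand): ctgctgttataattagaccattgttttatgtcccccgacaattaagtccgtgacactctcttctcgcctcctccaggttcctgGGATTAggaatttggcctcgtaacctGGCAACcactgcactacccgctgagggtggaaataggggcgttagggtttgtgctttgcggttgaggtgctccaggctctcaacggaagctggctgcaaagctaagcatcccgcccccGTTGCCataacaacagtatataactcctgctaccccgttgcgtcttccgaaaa
Spef2 (chr2:60421821-60422100, minus strand): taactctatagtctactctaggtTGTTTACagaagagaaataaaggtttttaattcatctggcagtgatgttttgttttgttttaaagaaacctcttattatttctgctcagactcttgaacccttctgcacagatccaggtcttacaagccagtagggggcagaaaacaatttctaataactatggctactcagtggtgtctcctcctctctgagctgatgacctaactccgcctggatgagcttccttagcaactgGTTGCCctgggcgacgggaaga
Alas2 (chrX:22895200-22895479, plus strand): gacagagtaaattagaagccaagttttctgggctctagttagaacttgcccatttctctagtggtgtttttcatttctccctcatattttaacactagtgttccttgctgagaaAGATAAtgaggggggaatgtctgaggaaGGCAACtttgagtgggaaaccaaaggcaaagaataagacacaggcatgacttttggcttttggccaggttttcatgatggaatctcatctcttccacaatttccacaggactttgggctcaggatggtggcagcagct

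Tekt1 holds GTTGCC at bases 212 to 217. Tekt2 holds it on the other strand at bases 222 to 227 and 261 to 266. Lrrc23 holds it at bases 228 to 233 and, on the other strand, at bases 110 to 115, and GGATTA, the other strand of the OTX motif, at bases 84 to 89. Spef2 holds TGTTTAC, the other strand of the forkhead motif, at bases 24 to 30 and GTTGCC at bases 259 to 264. Alas2 holds AGATAA at bases 115 to 120 and GGCAAC, the other strand of GTTGCC, at bases 143 to 148. In these samples Lrrc23, a radial spoke gene, differed by 4.28 ± 0.14, against -6.44 for Alas2.

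Genes of secreted products were higher in 25 of 28 cases and lower in none, with a median of 3.48. At the top of the scale in all pools were Ttr, Sostdc1, Enpp2, Igf2, Ptgds, Clu and Cst3. Enpp2, the autotaxin that makes lysophosphatidic acid, read 6.20, 6.54, 5.86 and 5.12 in blood. Ptgds, the prostaglandin D synthase that is abundant in CSF, read 6.79, 7.54, 6.24 and 7.58 there. Below the top lay the growth factor carrier gene Igfbp2, with 14.81, 14.81, 15.03 and 15.18 in choroid plexus, against 6.05, 4.46 and 4.82 (blank in rat 1) in blood, a difference of 9.85 ± 0.38 (adjusted p = 1.37e-06, n = 4 and 3). Gas6, a ligand of the TAM receptors, read 15.37, 15.46, 15.58 and 15.64 in choroid plexus, against 6.93, 7.70, 5.48 and 6.04 in blood, a difference of 8.97 ± 0.45 (adjusted p = 1.46e-06). In both genes every pool exceeded every blood array by more than 7 log2 units. The anti-ageing hormone gene Kl was higher by 7.64 ± 0.51 (n = 4 and 2), the axon guidance gene Slit2 by 7.93 ± 1.009 and the Wnt inhibitor gene Sfrp1 by 5.72 ± 0.26 (n = 4 and 2). The iron carrier gene Tf varied more between pools, at 15.73, 14.47, 15.51 and 14.63, and differed by 3.14 ± 0.34. The ferroxidase gene Cp differed by 1.83 ± 0.48 and the angiogenic factor gene Vegfa by 3.32 ± 0.23. Bmp6 read 8.39, 8.28, 8.66 and 8.60 in choroid plexus and had blank cells on every blood array, so it was not tested. Wnt5a, Nts and Calr did not pass, with differences of 1.16, 0.62 and -0.12.

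**Figure D3:**
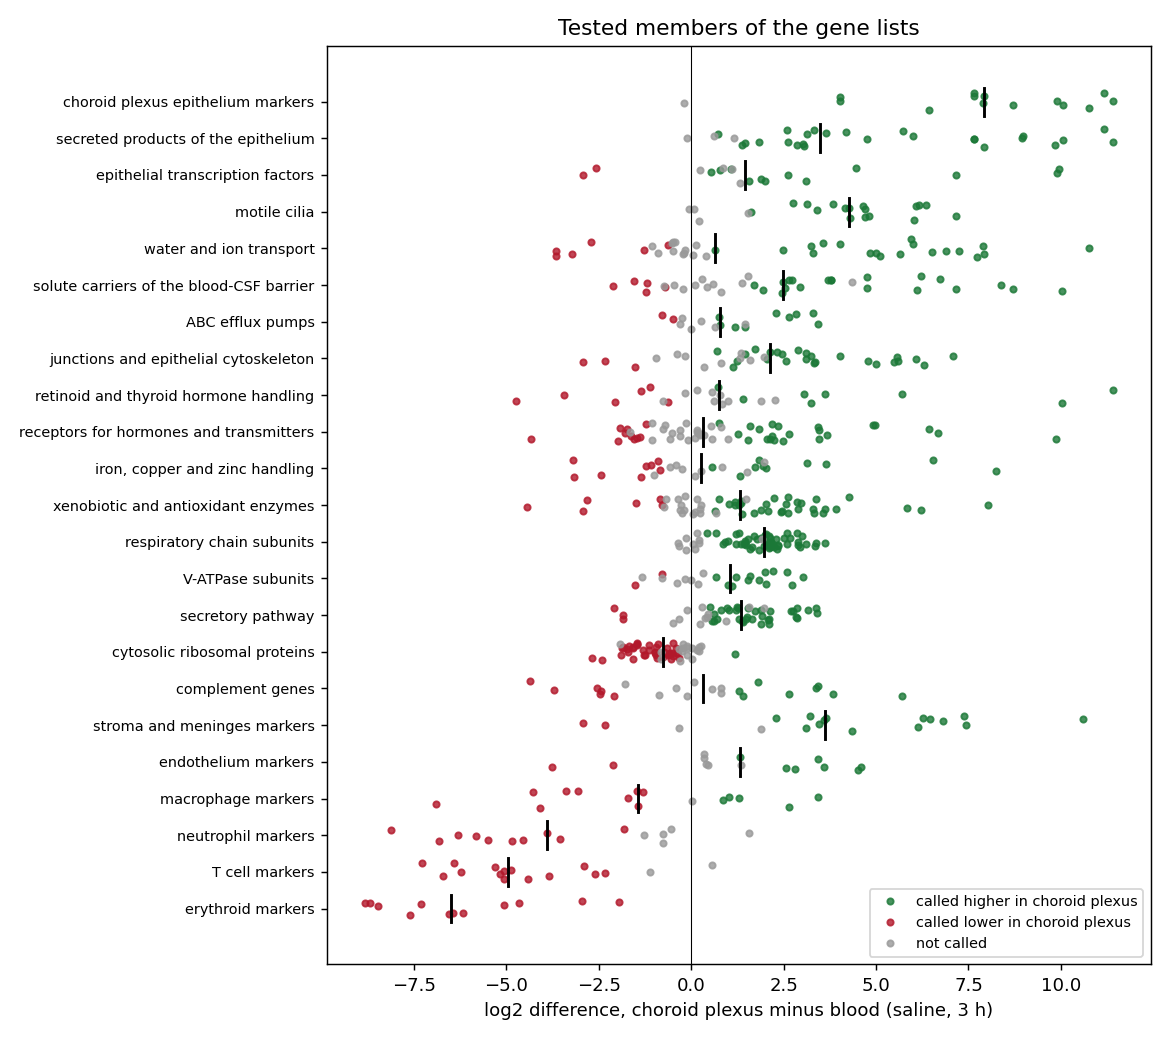
Log2 difference, choroid plexus minus blood, of each tested member of 23 gene lists, 1 point per gene with a bar at the list's median. Epithelium markers lie farthest right (median 7.91), erythroid markers farthest left (median -6.50), and ribosomal protein genes lie mostly left of 0 (median -0.77).

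Of 37 water and ion transport genes tested, 19 were higher and 6 lower (median 0.66). Without pools 3 and 4, a choice made after seeing the data, 20 were higher and 6 lower and the median was 1.86. With only genes that had a value on all 8 arrays the median was -0.17. Among sodium pump beta subunits Atp1b1 differed by 7.26 ± 0.60 and Atp1b2 by 6.51 ± 0.28, with 2.67 and 1.69 by other probes of Atp1b2. Atp1b3 read 14.07, 13.95, 7.60 and 14.22 in choroid plexus, against 12.32, 12.38, 12.41 and 12.21 in blood. It was higher in 3 pools and far lower in pool 3, and its difference of 0.13 ± 1.44 did not pass. Fxyd1, phospholemman, a regulator of the pump, read 13.27, 13.45, 13.05 and 13.23 in the pools and was blank on every blood array. The potassium channel subunit gene Kcne2 read 12.28, 12.35, 12.40 and 12.28 in choroid plexus, against 5.67 and 3.12 (blank in rats 3 and 4) in blood, a difference of 7.93 ± 0.67 (adjusted p = 0.000145, n = 4 and 2). Its partner Kcnq1 read 7.16, 7.25, 7.37 and 6.95 in the pools and was blank in blood. The calcium pump gene Atp2b2 read 12.64, 12.88, 12.61 and 12.68 in choroid plexus, against 3.64, 7.67, 4.02 and 4.53 in blood, a difference of 7.74 ± 0.82 (adjusted p = 8.45e-05). Clic6, a chloride channel family gene, differed by 7.89 ± 0.34 (n = 4 and 3).

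Among the bicarbonate and chloride carriers, Slc4a5, the sodium bicarbonate carrier of the ventricular membrane, read 10.34, 10.28, 10.96 and 10.96 in the pools and was blank in blood. Slc4a10, the sodium-driven exchanger of the opposite membrane, read 10.68, 10.38, 10.59 and 10.37 in the pools and had a single blood value of 3.17 (blank in rats 2, 3 and 4). Slc12a2, the sodium potassium chloride carrier NKCC1, differed by 3.56 ± 0.19, its kinase gene Stk39 by 6.90 ± 0.77 (3.67 by another probe), the anion exchanger gene Slc4a2 by 5.11 ± 0.17 and the potassium chloride carrier gene Slc12a4 by 5.64 ± 0.13. The carbonic anhydrase genes Car12 and Car4 of the cell surface were higher by 4.04 ± 0.48 (n = 4 and 2) and 3.23 ± 0.52 (n = 4 and 3). The cytosolic Car2, which red cells also hold, read 14.51, 14.78, 14.82 and 14.81 in choroid plexus, against 15.999, 15.999, 15.999 and 15.999 in blood, a difference of -1.27 ± 0.12 (adjusted p = 5e-05). It was high in both tissues and at the top of the scale in blood.

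Aqp1, the water channel of the ventricular membrane and of red cells, was the only one of the 14 tested epithelium markers that was not called. It read 13.08, 13.18, 13.13 and 12.96 in choroid plexus, against 13.39, 13.54, 13.17 and 13.02 in blood, and the values overlapped. The difference was -0.19 ± 0.15, adjusted p = 0.317, with a 95% interval of 0.686 to 1.12 for the ratio of choroid plexus to blood. Lower in choroid plexus were the epithelial sodium channel subunit gene Scnn1b, at -3.65 ± 0.28, and the calcium-activated potassium channel gene Kcnn4, at -3.66 ± 0.44, which lymphocytes and red cells express. Cftr, Scnn1a and Wnk4 were not called.

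Of 36 solute carriers of the blood-CSF barrier 20 were higher and 5 lower, with a median of 2.48. Slco1c1, the thyroxine carrier Oatp1c1, read 13.38, 13.66, 13.60 and 13.51 in choroid plexus, against 4.44, 3.12, 3.18 and 3.25 in blood, a difference of 10.04 ± 0.30 (adjusted p = 1.87e-07). The folate receptor gene Folr1 read 14.34, 14.17, 14.34 and 14.39 in choroid plexus, against 5.47, 7.35, 4.46 and 5.12 in blood, a difference of 8.71 ± 0.56 (adjusted p = 5.18e-06). The organic anion carrier gene Slco1a5 differed by 8.39 ± 0.39 (n = 4 and 3) and the neutral amino acid carrier gene Slc7a10 by 7.16 ± 0.13. Creatine, lactate and citrate carriers were higher as well, with Slc6a8 at 6.74 ± 0.15 (2.62 by another probe), Slc16a8 at 6.21 ± 0.21 and Slc13a3 at 4.76 ± 0.69 (n = 4 and 3). The organic anion transporter gene Slc22a8 differed by 4.75 ± 0.35, and its relative Slc22a6 stood at 1.38 ± 0.53 without passing. Of the glucose carriers, Slc2a1, the carrier of barrier cells, was higher by 2.49 ± 0.15, and Slc2a3 was lower, with 5.06, 5.01, 3.41 and 3.57 in choroid plexus, against 6.11, 6.27, 6.98 and 6.17 in blood, a difference of -2.12 ± 0.45 (adjusted p = 0.00395). Also lower were the glycine carrier gene Slc6a9 at -1.56 ± 0.44 and Slc7a5 at -1.22 ± 0.22. Slc22a17 read 8.82, 10.64, 15.997 and 15.99 in choroid plexus, against 6.28, 10.87, 10.72 and 6.17 in blood. Its values were split within both tissues and the difference did not pass.

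Among ABC pumps 9 of 17 were higher and 2 lower, with a median of 0.78, and without pools 3 and 4 the counts were 6 and 2. The lipid transporter gene Abca2 was highest at 3.43 ± 0.12, followed by the peroxisomal Abcd3 at 3.30 ± 0.13, Abca4 at 2.82 ± 0.23 and Abcc1 (MRP1) at 2.66 ± 0.14. Another probe of Abca4 gave 0.84 and did not pass (adjusted p = 0.159 over all probes). Abcc1, the efflux pump of the blood side of the epithelium, read 12.28, 12.11, 12.47 and 12.41 in choroid plexus, against 9.81, 9.56, 9.74 and 9.52 in blood, a difference of 2.66 ± 0.14 (adjusted p = 1.81e-06). Abcc4 stood at 1.19 ± 0.21, but another of its probes gave -1.64. Abcb1a and Abcg2, the efflux pumps of brain capillaries, were low in both tissues and not called: Abcg2 read 6.68, 6.12, 5.99 and 4.90 in choroid plexus, against 6.72, 6.99, 6.47 and 4.53 in blood. Abcc5 and Abcg1 were lower by small amounts, at -0.79 ± 0.17 and -0.49 ± 0.13.

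Junction and cytoskeleton genes were higher in 25 of 37 cases and lower in 3 (median 2.13). The polarity gene Crb3 read 12.66, 12.49, 12.29 and 12.35 in choroid plexus, against 5.60, 4.76 and 5.74 (blank in rat 1) in blood, a difference of 7.08 ± 0.27 (adjusted p = 1.21e-06, n = 4 and 3). The keratin genes of simple epithelia, Krt8 and Krt18, differed by 6.07 ± 0.62 (n = 4 and 3) and 6.29 ± 0.40. Claudins of the choroid plexus, Cldn1 and Cldn2, differed by 5.59 ± 0.40 (n = 4 and 3) and 4.04 ± 0.30 (n = 4 and 2), Ocln by 3.35 ± 0.12 and the tight junction scaffold gene Tjp3 by 5.00 ± 0.41. Of the classical cadherins, Cdh2 stood at 4.79 ± 0.34 and Cdh1 at -0.15 ± 0.39, and Cdh1 was not called. Krt7 and Rab25 were lower, at -2.33 ± 0.51 (n = 4 and 3) and -2.93 ± 0.30. The pool values of Krt7 were low, from 4.68 to 5.34. In each of the 4 tissue comparisons after EIH or AMPH, its difference lay over 2 log2 units from that under saline.

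Of 24 genes of retinoid and thyroid hormone handling tested, 8 were higher (33.3%) and 6 lower (25%), with a median of 0.76. These shares are close to the 31.9% and 24.3% of all genes. Besides Ttr and Slco1c1, the retinoic acid carrier gene Crabp2 was higher at 5.71 ± 0.29, the degrading enzyme gene Cyp26b1 at 3.63 ± 0.60 (n = 4 and 3) and the retinol receptor gene Stra6 at 3.23 ± 0.20 (n = 4 and 2). Lower were the retinoic acid receptor gene Rara, with 5.44, 4.89, 5.44 and 4.44 in choroid plexus, against 9.14, 9.62, 9.92 and 10.45 in blood, a difference of -4.73 ± 0.34 (adjusted p = 9.37e-06), and the deiodinase gene Dio1 at -3.44 ± 0.22. The other lower members were the deiodinase genes Dio2 and Dio3 at -2.05 ± 0.42 (n = 2 and 2) and -1.35 ± 0.35 and the nuclear receptor genes Rarb and Thrb at -1.11 ± 0.37 (n = 4 and 3) and -0.62 ± 0.21. Without pools 3 and 4, 7 were higher and 3 lower. Second probes of Dio1 and Dio3 gave -0.37 and 0.08 and did not pass. Rbp4, the retinol carrier, read 10.40, 8.34, 10.30 and 7.50 in choroid plexus, against 5.16, 8.42, 5.98 and 7.92 in blood. Its pools were split and it did not pass.

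Receptor genes had 22 of 54 higher and 10 lower, with a median of 0.32 against 0.15 over all genes. Fgfr2, a fibroblast growth factor receptor gene, read 14.27, 14.56, 14.31 and 14.48 in choroid plexus, against 4.02, 5.94 and 3.64 (blank in rat 4) in blood, a difference of 9.87 ± 0.53 (adjusted p = 5.98e-06, n = 4 and 3). Another of its probes gave 2.22. The endothelin receptor gene Ednrb read 11.26, 10.98, 11.16 and 11.12 in choroid plexus, against 5.16, 3.72, 4.24 and 4.69 in blood, a difference of 6.68 ± 0.30 (adjusted p = 8.52e-07). The prolactin and leptin receptor genes Prlr and Lepr differed by 6.44 ± 0.22 and 4.96 ± 0.36, and the natriuretic peptide receptor genes Npr2 and Npr3 by 4.93 ± 0.51 (n = 4 and 3) and 3.68 ± 0.16. Htr2c, the serotonin receptor typical of this epithelium, read 8.31, 8.32, 8.10 and 7.50 in the pools and had a single blood value of 3.64 (blank in rats 2, 3 and 4), too few for the test. Of the adenosine receptors, Adora1 was higher at 1.26 ± 0.32 and Adora2a lower at -1.97 ± 0.13. Ramp1, a partner of the calcitonin receptor-like receptor, was the lowest at -4.34 ± 0.30, while its relative Ramp2 was higher at 3.44 ± 0.54 (n = 4 and 3). Dopamine receptors Drd1, Drd2 and Drd5 were not called.

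Of the metal handling genes 10 of 27 were higher (37.0%) and 8 lower (29.6%), close to the 31.9% and 24.3% of all genes (median 0.27). The metalloreductase gene Steap1 read 13.64, 13.37, 13.42 and 13.55 in choroid plexus, against 4.46 and 6.04 (blank in rats 1 and 2) in blood, a difference of 8.25 ± 0.44 (adjusted p = 1.86e-05, n = 4 and 2). Mt3, a metallothionein known from brain, read 12.69, 12.07, 11.88 and 11.94 in choroid plexus, against 6.20, 5.81, 4.46 and 5.90 in blood, a difference of 6.55 ± 0.39 (adjusted p = 3.61e-06). Its relative Mt1 differed by 0.57 ± 0.19. Steap2 was higher at 3.63 ± 0.28 and the copper pump gene Atp7a at 1.73 ± 0.31. Lower were the iron exporter gene Slc40a1 at -3.20 ± 0.16, the phagosomal metal carrier gene Slc11a1 at -3.16 ± 0.30 and the ferritin genes Ftl1 and Fth1 at -2.44 ± 0.11 and -1.09 ± 0.12, with Ftl1 at the top of the scale in blood.

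Detoxification and antioxidant genes were higher in 32 of 54 cases and lower in 6 (median 1.33). The 3 superoxide dismutases differed in size and direction. The secreted Sod3 read 14.52, 14.68, 14.41 and 14.64 in choroid plexus, against 6.11, 6.92, 5.98 and 7.05 in blood. The cytosolic Sod1 read 15.62, 15.55, 15.44 and 15.52 in choroid plexus, against 12.28, 12.42, 12.05 and 12.20 in blood, and the mitochondrial Sod2 read 8.47, 8.47, 8.35 and 7.82 in choroid plexus, against 11.10, 11.10, 11.05 and 11.51 in blood. Their differences were 8.04 ± 0.27, 3.29 ± 0.13 and -2.91 ± 0.20. Catalase, Cat, and the red cell peroxiredoxin Prdx2 were lower at -4.44 ± 0.24 and -2.82 ± 0.11, Prdx2 being at the top of the scale in blood. The conjugating and hydrolysing enzyme genes Sult1a1, Pon1, Gstt1 and Ephx1 were higher by 5.83 ± 0.45 (n = 4 and 3), 4.27 ± 0.12, 3.91 ± 0.36 (n = 4 and 3) and 3.57 ± 0.17. Aldh7a1, an aldehyde dehydrogenase gene, differed by 6.21 ± 0.36.

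Among respiratory chain genes 51 of 61 were called higher and none lower, with a median of 1.98. Of the list, 2 genes in choroid plexus and 0 in blood were at the top of the scale on every array, which compresses their differences. Complex I had 26 of 28 members higher (median 1.99), complex II 4 of 4 (2.17), complex III 5 of 7 (1.30), and the ATP synthase 12 of 13 (2.12). Complex IV, cytochrome c oxidase, had 3 of 8 higher, with a median of 0.19. The largest differences were those of Ndufv3 and Ndufa2 of complex I. Ndufv3 read 12.32, 12.49, 11.96 and 11.95 in choroid plexus, against 8.51, 8.68, 8.82 and 8.28 in blood, a difference of 3.61 ± 0.19 (adjusted p = 1.75e-06). Ndufa2 read 12.31, 12.27, 11.96 and 12.04 in choroid plexus, against 8.88, 8.72, 8.65 and 8.78 in blood, a difference of 3.39 ± 0.14 (adjusted p = 6.15e-07). The ATP synthase subunit gene Atp5mc3 differed by 3.34 ± 0.11 and Ndufs3 of complex I by 3.10 ± 0.11. In complex IV, Cox6c was higher by 2.10 ± 0.13, while Cox7b read 13.16, 13.02, 12.99 and 12.72 in choroid plexus, against 12.84, 13.01, 13.06 and 13.50 in blood, a difference of -0.13 ± 0.18 (adjusted p = 0.573), with overlapping values. Uqcrh of complex III stood at -0.32 ± 0.12, near the top of the scale in both tissues.

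Of the cytosolic ribosomal protein genes 39 of 57 were lower in choroid plexus and 1 was higher, with a median of -0.77. The large subunit had 24 of 33 lower and 1 higher (median -0.60), the small subunit 15 of 24 lower (median -0.85). Rplp0 read 9.85, 9.81, 9.62 and 9.47 in choroid plexus, against 12.18, 12.41, 12.44 and 12.43 in blood, a difference of -2.68 ± 0.14 (adjusted p = 1.79e-06). Rps15 read 10.43, 10.30, 10.47 and 10.55 in choroid plexus, against 12.84, 12.87, 12.90 and 12.76 in blood, a difference of -2.40 ± 0.12 (adjusted p = 1.22e-06). Rps4x and Rps7 were lower by similar amounts, at -1.88 ± 0.15 and -1.86 ± 0.12. The exception, Rpl14, was at the top of the scale in the pools and differed by 1.19 ± 0.11. Of the list, 4 genes in choroid plexus and 2 in blood were at the top of the scale on every array. For Rpl15, lower at -1.56 ± 0.15, another probe gave 0.83.

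**Figure D4:**
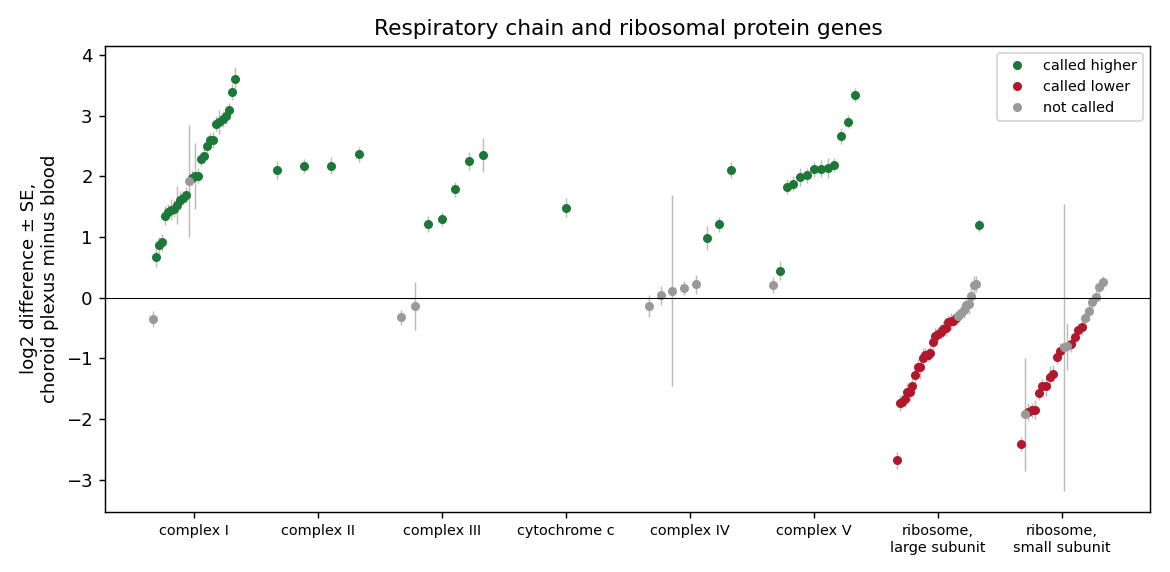
Log2 difference ± SE, choroid plexus minus blood, of each respiratory chain and ribosomal protein gene, ordered within its complex. Complexes I, II and V lie mostly above 1, complex IV centres on 0.19, and both ribosomal subunits lie mostly below 0.

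The secretory pathway, which carries proteins from the endoplasmic reticulum (ER) to the Golgi, had 34 of 48 genes higher and 3 lower (median 1.34). The disulfide isomerase genes Pdia4 and Pdia6 differed by 3.41 ± 0.62 and 3.17 ± 0.14, the cargo receptor gene Lman1 by 3.38 ± 0.25 and the chaperone gene Hsp90b1 by 2.87 ± 0.13. Other probes of Lman1 and Hsp90b1 gave 1.71 and 1.63. Lman1 read 11.01, 10.98, 10.68 and 10.40 in choroid plexus, against 7.70, 7.73, 7.33 and 6.80 in blood. Hspa5, the main ER chaperone, read 9.16, 14.64, 14.92 and 14.57 in choroid plexus, against 11.34, 11.60, 11.47 and 11.001 in blood. Its pool 1 lay below blood and the other pools above, so the difference of 1.97 ± 1.24 did not pass. Lower were Sec24a at -2.09 ± 0.26, for which another probe gave 1.56, Kdelr2 at -1.85 ± 0.25 and Sar1a at -1.84 ± 0.20. Of 22 subunits of the proton pump of acidic organelles (V-ATPase), 13 were higher and 2 lower (median 1.05). Atp6v1d read 10.55, 10.75, 10.47 and 10.34 in choroid plexus, against 7.44, 7.50, 7.64 and 7.42 in blood, a difference of 3.03 ± 0.14 (adjusted p = 9.1e-07). Atp6v1c2, Atp6v0e2 and Atp6v1h differed by 2.71 ± 0.41 (n = 4 and 3), 2.59 ± 0.38 and 2.22 ± 0.38, and Atp6v1e2 and Atp6v1f were lower at -1.52 ± 0.50 and -0.78 ± 0.21. The call of Atp6v1e2 was lost in 7 of 23 alternatives.

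Complement genes had 8 of 22 higher and 6 lower (median 0.32), near the shares of all genes. The lower ones include Serping1, whose probes disagree. All 5 genes of the C1 complex were higher: C1s differed by 5.70 ± 0.20 (n = 4 and 2), C1r by 3.84 ± 0.22, C1qa by 3.42 ± 0.21, C1qb by 1.29 ± 0.21 and C1qc by 2.65 ± 0.29. Other probes gave 1.5997 for C1s, 2.24 for C1qa and 0.94 for C1qc. C1r read 10.52, 10.38, 10.63 and 10.33 in choroid plexus, against 6.79, 6.70, 6.98 and 6.04 in blood, a difference of 3.84 ± 0.22 (adjusted p = 2.62e-06). Factor B, Cfb, was higher at 3.38 ± 0.42. C3 was lower at -2.08 ± 0.21, as were the anaphylatoxin receptor gene C5ar1 at -4.35 ± 0.25 and properdin, Cfp, at -2.46 ± 0.24. The C1 inhibitor gene Serping1 stood at -3.70 ± 0.25, but another of its probes gave 5.41, so no direction is given.

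Stroma markers were higher in 14 of 18 cases and lower in 2 (median 3.62). The proteoglycan genes Fmod and Ogn were blank on part of the blood arrays. Fmod read 15.31, 15.30, 15.59 and 14.94 in choroid plexus, against 3.64 and 5.74 (blank in rats 2 and 3) in blood, a difference of 10.60 ± 0.58 (adjusted p = 2.14e-05, n = 4 and 2). The basement membrane gene Lama2 read 12.08, 12.15, 12.36 and 12.62 in choroid plexus, against 5.33, 5.17, 4.76 and 4.21 in blood, a difference of 7.43 ± 0.27 (adjusted p = 3.65e-07). Mgp, the matrix Gla protein gene, differed by 7.37 ± 0.44. Fn1, which platelets and monocytes can hold, was lower at -2.93 ± 0.19. Col1a1 stood at -2.32 ± 0.21, with another probe at 2.54, while Col1a2 and Col3a1 were higher at 3.58 ± 0.27 and 3.12 ± 0.23. Another probe of Col1a2 gave 0.39 and did not pass. Endothelium markers had 7 of 14 higher and 2 lower (median 1.33). Egfl7 differed by 4.61 ± 0.25, Emcn by 4.50 ± 0.57 (n = 4 and 2) and the receptor gene Kdr by 3.60 ± 0.17. Vwf and Pecam1, which platelets also hold, were lower at -3.76 ± 0.23 and -2.12 ± 0.24, and another probe of Vwf gave -0.76 (adjusted p = 0.388 over all probes). Plvap, the gene of the diaphragm of fenestrated capillaries, read 6.61, 6.93, 6.78 and 6.47 in choroid plexus, against 6.35 (blank in rats 2, 3 and 4) in blood. Mural cell markers had 5 of 7 higher and 1 lower (median 3.24), led by Cspg4 at 3.96 ± 0.19 (n = 4 and 3) and Rgs5 at 3.67 ± 0.73, with Kcnj8 and Tagln at 3.31 ± 0.41 and 3.24 ± 0.27. The only lower member was Notch3, which read 10.90, 11.24, 7.54 and 11.51 in choroid plexus, against 13.49, 13.75, 13.85 and 13.92 in blood, a difference of -3.45 ± 0.83 (adjusted p = 0.00779). Pool 3 stood apart.

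Of the macrophage markers 5 of 15 were higher and 9 lower (median -1.43). The higher members were the C1q genes, the mannose receptor gene Mrc1 at 1.03 ± 0.29 and Trem2 at 0.86 ± 0.16. The lower members included the monocyte chemokine receptor gene Ccr2 at -4.10 ± 0.47, the signalling adaptor gene Tyrobp at -4.27 ± 0.12 (-2.49 by another probe), Cd68 at -3.06 ± 0.15 and the lymphatic and macrophage receptor gene Lyve1 at -3.40 ± 0.43. One of the lower members is Pf4, the platelet chemokine gene, which the platelet list also holds. Neuron markers were higher in 6 of 10 cases (median 1.64). Snap25, a synaptic fusion gene, read 8.29, 7.03, 6.93 and 6.31 in choroid plexus, against 4.24, 4.04, 3.45 and 4.21 in blood, a difference of 3.15 ± 0.41 (adjusted p = 0.000296), and pool 1 was highest. The neuronal enolase gene Eno2 differed by 4.99 ± 0.65, the neurofilament gene Nefm by 3.14 ± 0.86 (n = 4 and 2) and the growth cone gene Gap43 by 2.89 ± 0.71. The call of Nefm was lost in 5 of 20 alternatives. Glia markers were higher in 6 of 13 cases and lower in 2 (median 1.00), and without pools 3 and 4 in 4 and 0 cases. The glutamate carrier genes Slc1a3 and Slc1a2 differed by 5.09 ± 0.48 (n = 4 and 3) (2.66 by another probe of Slc1a3) and 1.05 ± 0.26, the astrocyte enzyme gene Aldh1l1 by 2.81 ± 0.29, the oligodendrocyte factor gene Olig1 by 2.46 ± 0.45, and Gfap, the astrocyte filament gene, by 1.00 ± 0.29. The oligodendrocyte gene Mbp read 9.68, 7.83, 7.86 and 7.50 in choroid plexus, against 7.93, 9.07, 6.56 and 4.53 in blood, and it did not pass. The myelin genes Mobp and Cnp were lower at -1.58 ± 0.46 and -1.06 ± 0.37, but another probe of Mobp gave 2.94 and the call of Cnp was lost in 10 of 24 alternatives. The part of neighbouring brain tissue in these values was not tested. The label of the blood arrays also names the striatum, a brain region, although the protocol describes trunk blood. On those arrays the neuron markers had a summed intensity of 145 to 416, against 1310 to 2882 in the choroid plexus pools. The blood sums are over 8 to 10 markers with a value, those of the pools over 11. No striatum was compared, so these sums cannot settle the label.

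T cell markers were lower in 14 of 16 cases (median -4.95), NK and cytotoxic markers in 12 of 14 (median -4.27), B cell markers in 8 of 9 (median -3.90), platelet markers in 8 of 8 (median -5.90) and neutrophil markers in 10 of 15 (median -3.90), with none higher in these 5 lists. Cd3g, a chain of the T cell receptor complex, read 6.43, 5.57, 6.35 and 5.78 in choroid plexus, against 13.46, 13.32, 13.37 and 13.15 in blood, a difference of -7.29 ± 0.22 (adjusted p = 1.97e-07). The perforin gene Prf1 read 5.06, 4.72, 5.44 and 5.14 in choroid plexus, against 10.95, 11.43, 11.44 and 11.06 in blood, a difference of -6.13 ± 0.20 (adjusted p = 2.46e-07). Both stayed below 7 in every pool. Cd8a, Zap70 and Cd3d of T cells were lower by similar amounts, with differences of -6.72 ± 0.43 (n = 3 and 4), -6.40 ± 0.23 and -6.23 ± 0.18, as were the granzyme genes Gzma and Gzmk at -6.10 ± 0.50 and -5.52 ± 0.47. Among B cell genes Cd79b, Fcer2, Cd22 and Cd37 stood at -7.29 ± 0.36, -6.39 ± 0.36, -5.49 ± 0.38 and -4.04 ± 0.40, and another probe of Fcer2 gave -3.92. The platelet chemokine gene Pf4 read 8.98, 8.63, 8.82 and 8.65 in choroid plexus, against 15.64, 15.67, 15.64 and 15.69 in blood, a difference of -6.89 ± 0.13 (adjusted p = 5.57e-08). The platelet genes Gp1bb, Ppbp and Gp9 stood at -6.74 ± 0.17, -6.47 ± 0.55 and -6.09 ± 0.17. The granulocyte gene S100a8 read 7.31, 6.05, 5.92 and 3.46 in choroid plexus, against 13.61, 14.00, 14.09 and 13.46 in blood, a difference of -8.10 ± 0.73 (adjusted p = 3.37e-05), with -5.40 and -4.13 by other probes. It was highest in pool 1 and lowest in pool 4, as was its partner S100a9, with 7.71, 6.57, 5.99 and 3.75 in the pools. The interleukin receptor gene Il1r2 and the cathelicidin gene Camp stood at -6.30 ± 0.61 and -5.80 ± 0.56, but another probe of Camp gave -0.50 and did not pass (adjusted p = 0.677 over all probes). The chemokine gene Ccl5 was higher in pool 4 than in the others, at 7.81, 7.70, 7.44 and 9.91. Eosinophil and mast cell markers were lower in 5 of 11 cases and higher in 1, the histamine-forming enzyme gene Hdc, with 10.17, 10.15, 10.23 and 9.75 in choroid plexus, against 9.21, 6.86, 8.13 and 7.95 in blood, a difference of 2.04 ± 0.45 (adjusted p = 0.00503). Siglec5, the chymase gene Cma1 and the tryptase gene Tpsab1 were lower at -3.40 ± 0.36, -2.84 ± 0.34 (n = 3 and 4) and -1.56 ± 0.20.

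Extremes were picked for their size among called genes with values on all 8 arrays, non-overlapping groups and a symbol that is not a predicted locus. The 12 largest positive differences among them were Sostdc1, Igsf1, Enpp2, Slco1c1, Gas6, Ptgds, Folr1, Scgb1c1, Cpe, Glycam1, Sod3 and A2m, from 11.16 to 7.96. Igsf1, an immunoglobulin superfamily gene tied to thyroid hormone regulation, read 15.46, 15.36, 15.68 and 15.66 in choroid plexus, against 4.72, 6.05, 5.06 and 5.57 in blood, a difference of 10.19 ± 0.29 (adjusted p = 1.54e-07). Another of its probes gave 1.42. Scgb1c1, a secretoglobin gene, read 15.02, 15.22, 14.93 and 15.33 in choroid plexus, against 6.01, 7.50, 6.81 and 5.74 in blood, a difference of 8.61 ± 0.38 (adjusted p = 8.21e-07). Cpe, the carboxypeptidase that trims peptide hormones, read 13.45, 13.42, 13.53 and 13.45 in choroid plexus, against 5.67, 6.05, 4.02 and 5.57 in blood, a difference of 8.13 ± 0.41 (adjusted p = 1.49e-06). Glycam1, a mucin-like gene known from lymph node venules and milk, read 12.46, 12.81, 12.30 and 12.80 in choroid plexus, against 5.16, 5.35, 3.18 and 4.21 in blood, a difference of 8.12 ± 0.47 (adjusted p = 2.9e-06). That pools and blood arrays do not overlap in these genes follows from how the genes were picked. The 12 most negative differences, picked in the same way, were Alox15, Pla2g2a, Hemgn, Fgf17, Slc4a1, Epb42, Cd52, Lgals5, S100a8, Exosc2, Grap2 and Add2, from -8.99 to -8.06. Of these, Slc4a1 encodes the anion exchanger of the red cell membrane (another of its probes gave -4.76), and Epb42 and Add2 belong to its skeleton. Fgf17, a fibroblast growth factor gene, read 4.86, 5.41, 5.22 and 6.12 in choroid plexus, against 13.97, 14.20, 14.26 and 14.25 in blood, a difference of -8.77 ± 0.26 (adjusted p = 1.83e-07). Exosc2, a subunit of the RNA exosome, read 7.13, 7.19, 7.33 and 7.37 in choroid plexus, against 15.08, 15.27, 15.52 and 15.48 in blood, a difference of -8.08 ± 0.15 (adjusted p = 5.57e-08).

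Genes with a value on all 4 choroid plexus arrays and on no blood array numbered 41, and the reverse was found for no gene. With at least 3 of 4 arrays the counts were 58 and 6. Blank cells made up 1.68% to 6.37% of the probes in the pools, against 7.01% to 11.9% on the blood arrays. The rule behind them is not given in the sources used here, so no fold is stated. By the median in choroid plexus the first were Fxyd1, Slc4a5, Rhpn1, Gpc3, Bmp6, Rlbp1, Slc7a4, Shank3, Adamts1 and P3h2. Rlbp1, which carries retinaldehyde, read 8.54, 9.06, 8.40 and 8.52. Slc7a4, an amino acid carrier family gene, read 7.87, 8.09, 8.35 and 8.01. The proteoglycan gene Gpc3 read 8.87, 8.78, 8.67 and 7.97, and another of its probes, with values on 2 blood arrays, gave a difference of 3.04.

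The same tissue difference was measured on arrays that the saline comparison did not use: choroid plexus minus blood after EIH at 3 h, AMPH at 3 h, EIH at 1 day and AMPH at 1 day, each on 8 arrays of its own. These arrays are not all separate samples. Among the EIH pools of 1 day, 2 rat numbers stand in more than 1 pool, and 3 of the pools' rats also have a blood array in that set. In the other sets 2 to 4 rats of the pools have a blood array there, and each set has 1 or 2 rat numbers that recur on arrays of other groups. The EIH pools of 1 day carry titles that call them controls, while their source and treatment labels say EIH. Of all genes tested, the call rate there was 59.2% after EIH at 3 h (32.5% higher and 26.7% lower), 57.2% after AMPH at 3 h (32.2% and 25%), 57.9% after EIH at 1 day (31.9% and 26%) and 44.9% after AMPH at 1 day (24.2% and 20.7%). Of 5431 genes called under saline and tested in all 4 other sets, 3213 (59.2%) were called with the same sign in all 4, and 87 were called with the opposite sign in at least 1. Within a single set 68.0% to 84.2% of the called genes were called with the same sign. Across 9683 to 9813 genes, which are not independent replicates, the saline difference correlated with the others at 0.895 to 0.923, where all sets share the probes.

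**Figure D5:**
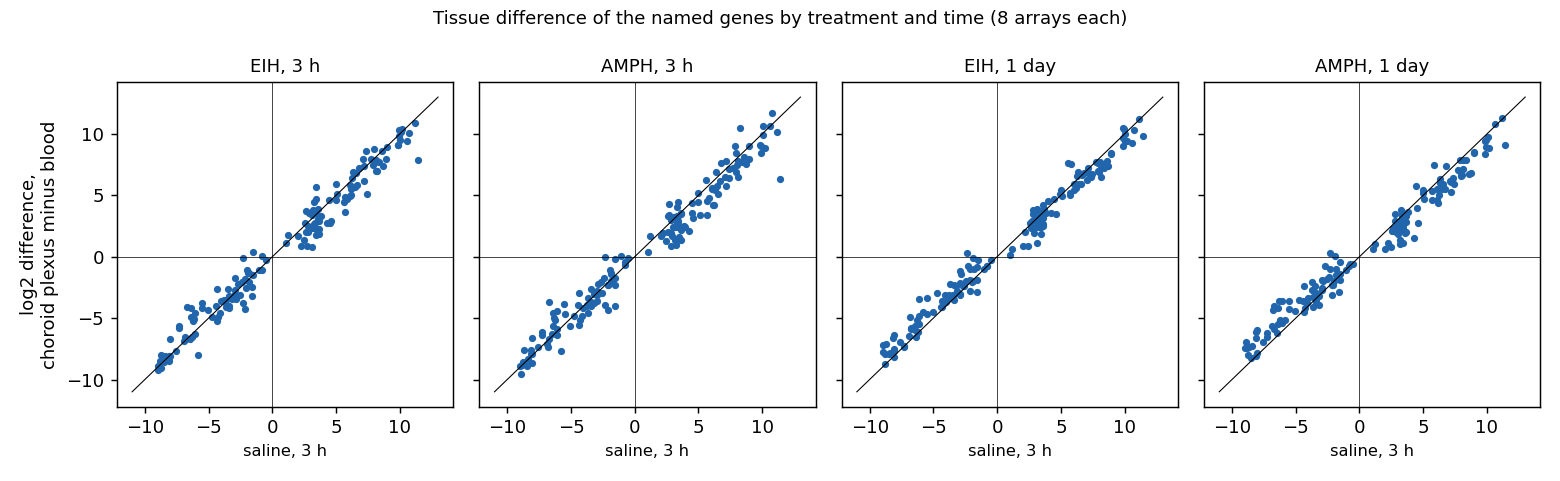
Log2 tissue difference (choroid plexus minus blood) of the named genes after EIH or AMPH at 3 h or 1 day, against the saline difference at 3 h, 1 point per gene, with the line of equality. Most points lie along the line, and 5 to 12 genes a panel lie over 2 log2 units from it. The farthest was Ttr after EIH and AMPH at 3 h (-3.53 and -5.05 relative to saline), Gzma after EIH at 1 day (2.66) and Pon1 after AMPH at 1 day (-2.72). None of these is among the 15 changes that passed the interaction test. Ttr was at the top of the scale in every saline pool, and its saline blood mean leaves out a blank array. Most named genes were picked for a large saline difference, so smaller differences in the other sets are expected in part.

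Erythroid markers were lower in 12 of 12 cases in each set, with medians of -6.63 to -5.77. Respiratory chain genes were higher in 49 to 55 cases and lower in 0 to 2, with medians of 1.70 to 2.16. Motile cilia genes were higher in 16 to 19 cases and lower in none, with medians of 3.00 to 4.03. Ribosomal protein genes were lower in 10 to 39 cases and higher in 1 to 7, with medians of -0.82 to -0.20. Water and ion transport genes had medians of 1.61 to 2.29. Metal handling genes had medians of -0.31 to 0.71 and complement genes of -0.96 to 0.06.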

How the data were processed

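RNA of 4 choroid plexus pools (3 rats each) and 4 blood samples (1 rat each) was labelled with Cy3 and hybridised to single-colour Agilent rat arrays, per the labels' protocols. The authors deposited linear intensity values for 14055 probes on 44 arrays. Scanner software, background correction, normalization and the rule for blank cells are not stated in the sources used here. From the values, the quantiles of the arrays are nearly the same within each time point, so the deposited values were taken as already normalized, and blank cells stayed missing.

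Of the probes 12926 had 1 gene symbol, 0 had several and 1129 had none. Symbols were updated through RefSeq, by accession for 11481 probes and by synonym for 78. For each of 10412 genes 1 probe was kept, the one that was brightest on average across the series (2210 genes had several). Values on the log2 scale of the deposited intensities, with a floor of 1, were fitted with limma 3.58.1 in R 4.3.3 (lmFit, eBayes, 2 groups, 8 arrays). A gene was tested with at least 2 values per group, which left out 487 genes. P-values were adjusted by Benjamini-Hochberg over all genes tested, with a threshold of 0.05. The other 4 tissue comparisons were fitted alike. The interaction was tested by contrasts in 1 model with a mean per group over all 44 arrays. The number of arrays limits the precision. The fit was tested on simulated data. Tables and figures were made with Python 3.11.15, pandas 2.3.3, numpy 2.4.6 and matplotlib 3.10.9. The promoter sequences are from RefSeq (GRCr8) and cover 250 bases before and 50 after the start.

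The comparison, the gene lists and the markers were chosen with earlier results of these data known. The rule for named genes took the 5 given markers, per list the 4 called genes of largest difference in the majority direction and 2 in the other, the 12 largest and 12 smallest differences over all genes, and up to 10 genes read in 1 tissue only. List members named beyond that rule were chosen for their role or for disagreeing probes after their values were seen. The numbering of replicates follows the order of deposition and pairs nothing, so no paired comparison was the main one. Arrays that share a rat were set as a random block in an alternative. Other alternatives were 3 other scalings, a filter on the lowest 25% of genes, array weights, other treatments of probes and blank cells, a floor of 16 and leaving out each array. The pools that share rats with the blood arrays were also left out together.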

Additional observations from a re-analysis of the deposited data

Results flagged for a closer look

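In 301 sets of 4 arrays for the named genes, 19 held 1 array whose gap to the nearest other exceeded Dixon's 95% critical value. Chance gives about 1 in 20. In choroid plexus, pool 4 stood low for Abca4 (9.36), Atp6v1c2 (7.58), Hdc (9.75), Kdelr2 (6.95) and Rgs5 (8.35), and high for Ccl5 (9.91). Pool 3 stood high for Dlx1 (8.29) and Serping1 (8.41), and low for Notch3 (7.54). Pool 1 stood high for Crabp2 (13.98) and Krt7 (5.34), and pool 2 for Atp5mc3 (14.53). In blood, rat 4 stood low for Atp6v0e2 (5.12) and Cd8a (10.15) and high for Sod2 (11.51). Rat 1 stood high for Slco1c1 (4.44) and low for Rplp0 (12.18), rat 2 stood high for Krt18 (10.26), and rat 3 stood low for S100a9 (10.13).

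The tissue difference of a named gene differed from that under saline 15 times, by the interaction term of limma with adjusted p over all genes. The values are the tissue difference after the treatment minus that under saline. After EIH at 3 h they were 1.25 for Abca2, 1.14 for Abcd3, 1.00 for Cd3d, 2.66 for Cd8a, -2.30 for Lama2 and -2.39 for Tf. After AMPH at 3 h they were -1.998 for Aldh7a1, 1.03 for Cd3d, 3.04 for Cd8a, -1.39 for Kdr and -2.45 for Mobp. After EIH at 1 day the value was 1.74 for Sod2. After AMPH at 1 day they were 2.69 for Cd8a, -1.64 for Kdr and 1.68 for Serping1. Over all genes the interaction passed for 589 of 9813 after EIH at 3 h, 304 of 9788 after AMPH at 3 h, 22 of 9683 after EIH at 1 day and 110 of 9684 after AMPH at 1 day. The arrays of 1 day were scaled apart from those of 3 h, and scaling and time cannot be told apart there. Cd8a was less far below blood in 3 of the 4 sets, with tissue differences of -4.06 after EIH at 3 h, -3.69 after AMPH at 3 h and -4.04 after AMPH at 1 day, against -6.72 under saline. Every set was compared with the same saline arrays, so a gene flagged in several sets is not an independent repeat. Most named genes were also picked for a large saline difference, so a smaller one elsewhere is expected in part from the picking alone. This bears on Cd8a, Cd3d, Lama2, Tf, Aldh7a1, Kdr, Sod2 and Serping1. Abca2, Abcd3 and Mobp instead lay farther from 0 than under saline. The saline difference of Cd8a leaves out 1 blank pool.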

How the results depend on the processing

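Over 25 alternatives that test genes, the number called ran from 4462 (with at least 2-fold added to the threshold) to 6042 (array weights), against 5581, with 2495 to 3511 higher and 1922 to 2531 lower. Testing every probe alone called 7180 probes, 4145 higher and 3035 lower. All are within 1.5 times of the reported counts. The share of calls that were higher in choroid plexus was 54.6% to 59.6%, against 56.7%. With arrays that share a rat as a replicate block (consensus correlation 0.064) 5592 genes were called, 3180 higher and 2412 lower, and no count moved by over 1.5 times. Without pools 1 and 2, which hold the rats of the blood arrays, 4499 were called, 2495 higher and 2004 lower. That fit also had fewer pools, so shared rats and fewer arrays cannot be told apart. Leaving out each choroid plexus pool in turn gave 5133 to 5716 calls (2900 to 3294 higher, 2233 to 2422 lower), and leaving out each blood array 5287 to 5497 (3014 to 3098 higher, 2267 to 2399 lower). Without pools 3 and 4, chosen after seeing the data, 5046 were called. Among 160 genes chosen by the naming rule, 145 kept their call under every alternative in which they were checked. These checks left out the 2-fold threshold, the test of every probe alone and any fit that did not test the gene. Each gene thus had 20 to 24 alternatives. The mean over probes turned Mobp to 0.39 (adjusted p = 0.516) and Serping1 to 0.85. A call was lost in at least 1 alternative for Abcg1, Atp6v1e2, Atp6v1f, Cnp, Col1a1, Foxc2, Hdc, Krt7, Mobp, Nefm, Olig1, Rps4x, Sec24a and Slc1a2; the cause was not tested. The losses were not equal: Cnp lost its call in 10 of 24, Atp6v1e2 in 7 of 23 and Nefm in 5 of 20 alternatives, against 1 to 3 for the others. Over all lists, 104 counts or medians moved. The medians of 3 lists changed sign, running from -0.17 to 3.30 for water and ion transport (0.66 reported), from -0.24 to 1.07 for iron, copper and zinc handling and from -0.11 to 0.69 for complement genes. Ribosomal protein genes kept medians of -0.81 to -0.66, but their number of lower calls ran from 19 to 43, against 39. Higher calls ran from 5 to 15 for epithelium markers, against 13, and from 6 to 14 for transcription factors, against 12. With at least 3 of 4 arrays, 6 genes were measured in blood only, against none with all 4. On 1 strand only, GTTGCC was found in 31.6% of the cilia promoters, against 6.58% of the tested genes' promoters, and GTAAACA in none, against 1.25%. Only 4 arrays stood for each tissue, and signal over background was not used here.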
